A study of Rattus norvegicus and Mus musculus with 74 samples.

Results

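The 3 genes described here are Fam111a, Zcwpw1 and Sult1c2, measured in brain cortex of rats and mice. They were chosen by the higher signal for H3K9me3 (trimethylation of lysine 9 of histone H3) in rats exposed to valproate before birth, so that difference is given as a description and not as a test. All regions that list one of the 3 genes were taken, which gave 7 of 72824 regions in rat and 9 of 60110 in mouse. Where a gene has several regions, the first is the one with the highest mean signal over all libraries of its species.

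The series profiled 4 histone marks by chromatin immunoprecipitation and sequencing in 74 samples, 2 of them pooled inputs. Sprague-Dawley rats were controls given vehicle, prenatally exposed to valproate (VPA) and given vehicle, or prenatally exposed to VPA and given TAK-418, a compound that blocks LSD1, a histone demethylase. C57BL/6J mice formed the same 3 groups with prenatal poly I:C, an RNA analogue that mimics a viral infection, in place of VPA. Each group had 3 libraries per mark, and the labels used here give no age or dose and do not say that the libraries came from separate animals. Tests therefore measure the spread between these libraries, which may in part be technical.

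H3K9me3 is the mark of constitutive heterochromatin: methyltransferases such as SETDB1 and SUV39H1 place it, HP1 proteins bind it, and in cortex it lies over repeats and over clustered gene families that neurons do not use. H3K4me3 and H3K9Ac mark active promoters, and Polycomb complexes place H3K27me3 at silent developmental genes. VPA inhibits histone deacetylases, and LSD1 removes methyl groups from lysine 4 of histone H3. The 3 genes come from unrelated pathways. Fam111a encodes a protease that acts at replication forks on proteins stuck to DNA. Zcwpw1 encodes a chromatin reader that binds the histone methylation placed by the meiotic methyltransferase PRDM9. Sult1c2 encodes a cytosolic sulfotransferase, known from kidney and stomach, which joins sulfate to phenols and other small molecules.

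The rat regions differed in size and in position on the rn5 build. The only Fam111a region was chromosome 1, 236143200 to 236190199, which is 46999 bp long; it covered 1 CpG island and 1 promoter and also listed RGD1564894, which the RefSeq table pairs with Glyatl1, an acyltransferase-like gene. The first Zcwpw1 region, chromosome 12, 23447800 to 23453999 (6199 bp), lay inside the gene, 22936 bp from its start, and also listed LOC685020, which had no match in RefSeq. Its second region (chromosome 12, 23437400 to 23441599) lay downstream and also listed LOC685020, and the third (23454800 to 23456399) lay inside the gene. The first Sult1c2 region, chromosome 9, 3714800 to 3715999 (1199 bp), lay inside the gene, 7956 bp from its start. The second (3704200 to 3705399) and the third (3721400 to 3721999) also lay inside the gene. None of the Zcwpw1 or Sult1c2 regions held a CpG island, and neither first region overlapped a promoter. The exon or intron at each place was not determined here. Where a region also lists another gene, its signal cannot be assigned to Fam111a or Zcwpw1 alone.

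The promoters of the 3 genes are shown because the first region of Fam111a overlapped a promoter, whereas those of Zcwpw1 and Sult1c2 did not. The third Sult1c2 region overlapped 1 promoter. The second Zcwpw1 region also overlapped 1, but lay downstream, 34336 bp from the Zcwpw1 start, so that promoter is not at this start. They are the RefSeq sequences of build GRCr8, from 250 bases before to 50 after the gene start, and all 3 genes were matched by symbol. CG dinucleotides, the sites of DNA methylation, are in capitals; CG reads the same on both strands. The fourth sequence is that of Sult1c2al1, a gene next to Sult1c2 with a similar promoter. GRCr8 positions were not used to place the rn5 regions.
Fam111a, chr1:219065389-219065688, plus strand: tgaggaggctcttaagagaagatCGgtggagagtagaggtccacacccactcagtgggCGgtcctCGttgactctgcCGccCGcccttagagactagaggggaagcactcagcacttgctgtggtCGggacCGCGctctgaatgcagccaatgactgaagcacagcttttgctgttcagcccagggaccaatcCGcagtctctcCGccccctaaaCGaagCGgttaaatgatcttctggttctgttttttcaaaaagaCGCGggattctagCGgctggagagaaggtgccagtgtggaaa
Zcwpw1, first of 2 entries, chr12:24547893-24548192, minus strand: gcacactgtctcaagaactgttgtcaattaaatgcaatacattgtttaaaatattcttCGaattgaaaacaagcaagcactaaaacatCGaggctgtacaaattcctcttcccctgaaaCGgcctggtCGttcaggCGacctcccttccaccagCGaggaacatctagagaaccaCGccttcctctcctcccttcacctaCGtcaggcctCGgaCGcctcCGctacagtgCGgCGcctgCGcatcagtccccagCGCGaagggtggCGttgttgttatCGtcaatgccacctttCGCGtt
Sult1c2, chr9:7436731-7437030, plus strand: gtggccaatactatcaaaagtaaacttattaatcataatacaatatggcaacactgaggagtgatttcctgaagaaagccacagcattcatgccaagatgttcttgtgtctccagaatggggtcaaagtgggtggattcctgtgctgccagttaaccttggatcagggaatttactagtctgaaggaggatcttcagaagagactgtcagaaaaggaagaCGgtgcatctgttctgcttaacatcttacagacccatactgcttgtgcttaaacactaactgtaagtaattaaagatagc
Sult1c2al1, chr9:7529294-7529593, minus strand: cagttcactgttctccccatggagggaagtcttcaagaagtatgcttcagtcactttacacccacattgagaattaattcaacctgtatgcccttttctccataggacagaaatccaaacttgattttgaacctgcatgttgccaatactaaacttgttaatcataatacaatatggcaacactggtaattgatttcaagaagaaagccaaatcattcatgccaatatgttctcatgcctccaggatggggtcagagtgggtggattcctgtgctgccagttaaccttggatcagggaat

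The Fam111a promoter held 15 CG, and 32.0% of the 33469 promoters in the table held as many or more. The Zcwpw1 promoter held 20 CG (as many or more in 24.2%), and its other entry held 10. The Sult1c2 promoter held 1 CG, a number reached by 94.5% of promoters, and the Sult1c2al1 promoter held 0; the median promoter held 7. In the best local alignment of the Sult1c2 and Sult1c2al1 promoters, 140 of 157 columns were identical (89.2%). All 3 genes have relatives by name in RefSeq: Fam111al1 and the pseudogene Fam111a-ps1, the pseudogene Zcwpw1l1, and Sult1c2a and Sult1c2al1. How reads that match several places were assigned is not given in the sources used here, so signal at such copies is uncertain.

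The H3K9me3 signal at Fam111a was higher in all 6 libraries of VPA-exposed rats than in the control rats. In controls it stood at percentile 76.2 ± 34.2 of all rat regions (SD, n = 3). The values below are the deposited mean signal of the region, a coverage measure without read counts, so depth is unknown. The control libraries 1 to 3 had 3.20, 1.62 and 4.14. The VPA vehicle libraries had 4.90, 15.4 and 7.36, and the VPA TAK-418 libraries 11.2, 7.42 and 5.86. VPA vehicle replicate 2 stood well above the others, and neither VPA group overlapped the controls. Such a separation was common: of the 26084 rat regions fitted below, 83.7% had all VPA vehicle libraries above all controls. For VPA TAK-418 the share was 65.9%. The group means were 2.99 ± 1.27, 9.23 ± 5.51 and 8.15 ± 2.74 (SD, n = 3 each), a ratio of 3.09 for VPA vehicle to control and of 2.73 for VPA TAK-418 to control. An H3K9me3 interval, the authors' call of enrichment, was present in 0 control, 2 VPA vehicle and 3 VPA TAK-418 libraries. Over all regions the intervals numbered 7704 to 15861 in control, 23359 to 28518 in VPA vehicle and 17530 to 29883 in VPA TAK-418 libraries. The highest signal inside the region was 11, 6 and 23 in controls, 20, 61 and 34 after VPA and vehicle, and 58, 43 and 27 after VPA and TAK-418. By this measure control replicate 3 lay above VPA vehicle replicate 1, so those groups overlapped, while VPA TAK-418 lay above all controls.

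At the first Zcwpw1 region the mark was already present in controls and was higher after VPA. The control libraries had 2.93, 5.89 and 3.43, the VPA vehicle libraries 8.89, 11.7 and 9.57, and the VPA TAK-418 libraries 13.5, 7.20 and 10.1. Control replicate 2 was the highest of its group and still lay below every VPA library. All controls lay below all VPA vehicle libraries at 83.7% of fitted regions, and below all VPA TAK-418 libraries at 65.9%. The means were 4.08 ± 1.58, 10.1 ± 1.48 and 10.3 ± 3.15 (SD, n = 3 each), ratios of 2.46 and 2.51 to control. An interval was called in all 9 libraries.

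Sult1c2 had the highest group means of H3K9me3 signal among the 3 first regions, at a region of 1199 bp inside the gene. The control libraries had 5.31, 9.32 and 8.89, the VPA vehicle libraries 23.3, 23.4 and 14.7, and the VPA TAK-418 libraries 24.3, 11.7 and 12.8. Both VPA groups lay above all controls, as VPA vehicle did at 83.7% and VPA TAK-418 at 65.9% of fitted regions. VPA TAK-418 replicates 2 and 3 lay below all VPA vehicle libraries, whereas replicate 1 lay above them. The means were 7.84 ± 2.20, 20.5 ± 4.96 and 16.3 ± 6.98 (SD, n = 3 each), ratios of 2.61 and 2.07 to control. An interval was called in 2 control libraries and in all 6 VPA libraries, which had more intervals than the controls over all regions.

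**Figure D1:**
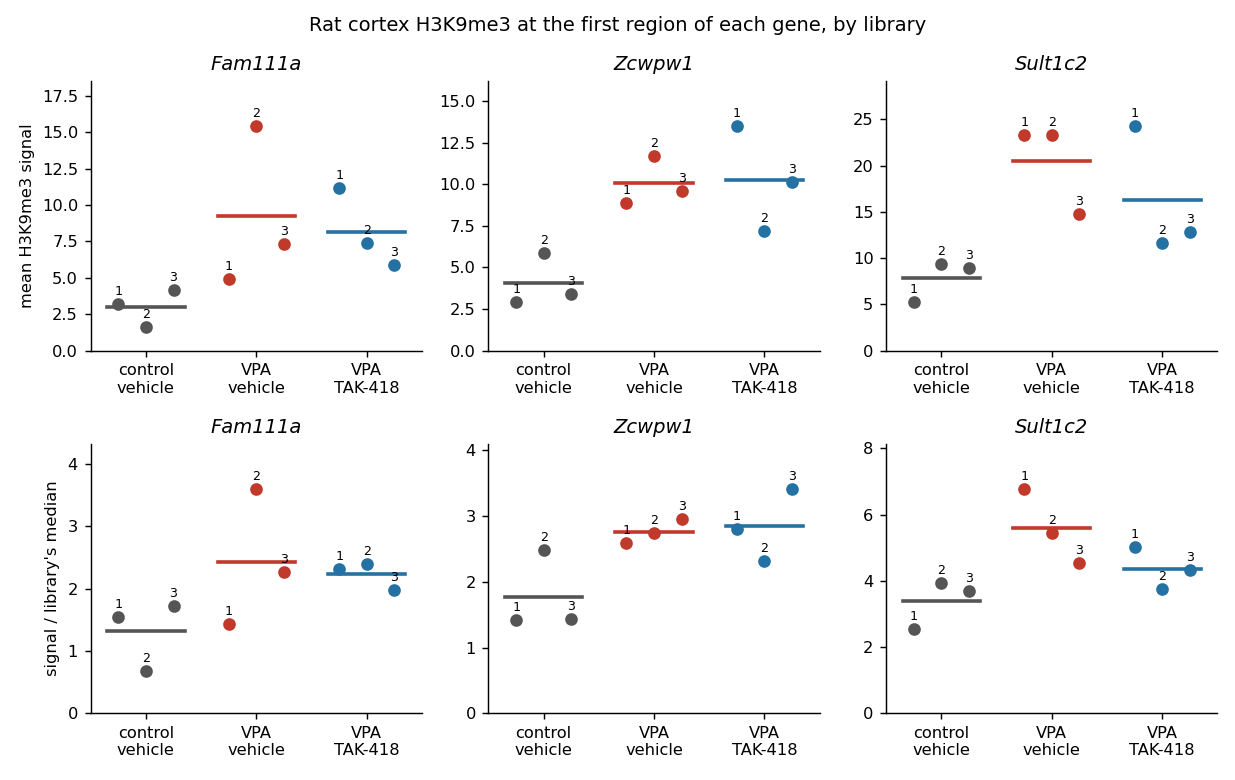
Mean H3K9me3 signal (upper row) and the same signal divided by the library's own median over 26084 regions (lower row) at the first region of each gene in rat cortex; points are libraries with their replicate number, bars are group means, n = 3. All VPA libraries lie above the controls in the upper row, while in the lower row Fam111a of VPA vehicle replicate 1 (1.43) falls among the controls. By signal, all VPA vehicle libraries lie above all controls at 83.7% of the 26084 regions, and all VPA TAK-418 libraries at 65.9%.

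The weaker regions differed in the same direction. The second Sult1c2 region had 5.75, 10.0 and 6.74 in controls, 14.8, 18.6 and 13.9 after VPA and vehicle, and 18.8, 12.1 and 13.5 after VPA and TAK-418. Controls overlapped neither VPA group, as at most fitted regions (83.7% for VPA vehicle, 65.9% for VPA TAK-418). The third Sult1c2 region, next to the gene start, had an interval in 1 library only and was not fitted; its means were 5.60 ± 1.35, 9.37 ± 2.85 and 12.2 ± 4.68 (SD, n = 3 each). The second Zcwpw1 region had means of 2.61 ± 0.941, 4.38 ± 0.154 and 3.76 ± 0.716, and the third 2.50 ± 1.73, 4.19 ± 0.379 and 4.60 ± 1.13 (SD, n = 3 each). At both of these Zcwpw1 regions control replicate 2, with 3.64 and 4.49, overlapped the VPA TAK-418 libraries, and with 4.49 it also lay among the VPA vehicle libraries.

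The change was set against all regions as log2(signal + 1); adding 1 makes the change of weak regions look smaller. A limma model was fitted to the 26084 rat regions with an H3K9me3 interval in at least 3 of 9 libraries, 6 of the 7 regions of the 3 genes among them. The log2 change from control to VPA vehicle was 1.28 at Sult1c2, 1.28 at Fam111a and 1.16 at Zcwpw1 for their first regions, which ranked 56, 61 and 134 of 26084 from the top. The second Sult1c2 region had 1.00, and the other Zcwpw1 regions had 0.61 and 0.67. The median of all fitted regions was 0.50. This comparison chose the genes, so their values carry no p. Limma called 56.2% of the fitted regions, all of them higher. In 83.7% all VPA vehicle libraries lay above all controls, as at the first regions of the 3 genes. The filter also counts intervals of the VPA libraries, which had more of them, so it can let regions in through these groups. Fam111a passed it with intervals in 5 of 9 libraries, 0 of them controls. Without the filter fewer regions were called, as given below.

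Whole libraries differed in the same direction as the genes. The median signal of the fitted regions was 2.08 to 2.40 in the controls, 3.24 to 4.29 in VPA vehicle and 2.96 to 4.83 in VPA TAK-418 libraries, highest in VPA TAK-418 replicate 1 and VPA vehicle replicate 2. The part of this difference in the genes' values was not tested, and the scaling between libraries is not given in the sources used here. Divided by the library's median, Fam111a had 1.54, 0.683 and 1.73 in controls, 1.43, 3.60 and 2.27 after VPA and vehicle, and 2.31, 2.39 and 1.98 after VPA and TAK-418. On this scale VPA vehicle replicate 1 lay among the controls. Zcwpw1 had 1.41, 2.48 and 1.43, then 2.59, 2.73 and 2.95, then 2.79, 2.32 and 3.41, so VPA vehicle still lay above the controls and VPA TAK-418 overlapped control replicate 2. Sult1c2 had 2.55, 3.92 and 3.70, then 6.78, 5.45 and 4.54, then 5.03, 3.76 and 4.32, again with VPA vehicle above all controls and VPA TAK-418 replicate 2 among them. The share of all regions that separate on this scale was not determined, and the comparison with control chose the genes. After median centring the log2 change from control to VPA vehicle was 0.79 for Sult1c2, 0.78 for Fam111a and 0.66 for Zcwpw1. After quantile normalization it was 0.44, 0.59 and 0.44. With either rescaling limma called 0 of the 26084 regions; after median centring 3460 had an unadjusted p under 0.05.

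On the log2(signal + 1) scale, regions with a high mean signal differed more between the groups than weak ones. The median log2 change from control to VPA vehicle was 0.42 in the lower 50% of regions by mean signal, 0.75 between the 90th and 95th percentile, where Fam111a lay, and 0.86 between the 95th and 99th, where the first Zcwpw1 region and both fitted Sult1c2 regions lay. The bands were cut on the mean over all 9 libraries, most of them from VPA-exposed rats, so a higher signal after VPA itself moves a region up. Adding 1 also makes the change of weak regions look smaller. The part of these effects in the trend was not tested. Nothing is read from the genes' own place in the bands, since this change chose the genes.

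TAK-418 was compared with vehicle in VPA-exposed rats by the same libraries that chose the genes, so these values are side by side only. The log2 difference between VPA TAK-418 and VPA vehicle was -0.36 at Sult1c2, -0.07 at Fam111a and -0.003 at Zcwpw1, where the median of all regions was -0.03. Sult1c2 stood at percentile 1.85 of all regions in this comparison, Fam111a at 37.4 and Zcwpw1 at 59.6. The second Sult1c2 region had -0.10. Leaving out VPA TAK-418 replicate 1 gave -0.67 at Sult1c2. Leaving out VPA vehicle replicate 2 turned Fam111a to 0.34 and Zcwpw1 to 0.10, and leaving out VPA TAK-418 replicate 3 turned Fam111a to 0.12. Leaving out VPA TAK-418 replicate 2 turned Zcwpw1 to 0.21. Limma called 0% of regions in this comparison (0 of 26084, with 128 at an unadjusted p under 0.05). From control to VPA TAK-418 the log2 change was 1.21 at Fam111a, 1.15 at Zcwpw1 and 0.93 at Sult1c2, with a median of 0.48 over all regions; 39.5% of regions were called, and 65.9% had all VPA TAK-418 libraries above all controls.

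**Figure D2:**
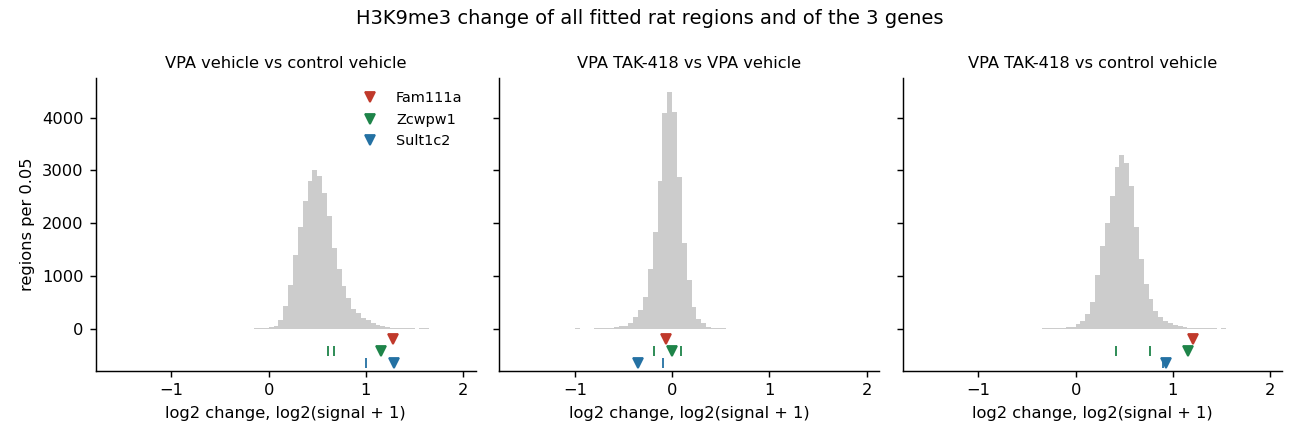
Number of rat regions by log2 change of H3K9me3 in 3 comparisons, in bins of 0.05; triangles under each histogram mark the first region of each gene and ticks its other fitted regions. The first regions lie at 1.16 to 1.28 in the left panel, and in the middle panel Sult1c2 lies at -0.36.

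The surroundings of the 3 genes differed. Around Fam111a the fitted regions within 250 kb of the region's centre were few. These 3 had log2 changes of 0.29 to 0.44 from control to VPA vehicle, all below the median of all regions. The nearest, centred 60.6 kb away, had means of 2.40 in controls and 3.60 after VPA and vehicle. Around Zcwpw1, 14 other fitted regions lay within 250 kb, with changes from 0.27 to 1.29 and a median of 0.69, and 11 of them exceeded the median of all regions. One of these regions, 136.5 kb away and with no gene listed, had a change of 1.29 and exceeded Zcwpw1 itself. Around Sult1c2, 15 other fitted regions had changes from 0.36 to 1.11 with a median of 0.67, and 14 exceeded the median of all regions. Limma called 1 of 3, 11 of 14 and 11 of 15 of these neighbours higher, beside 56.2% of all fitted regions. Within 1000 kb the median change was 0.49 over 40 regions at Fam111a, 0.75 over 57 at Zcwpw1 and 0.75 over 54 at Sult1c2. Of these, 23, 48 and 44 were called higher.

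**Figure D3:**
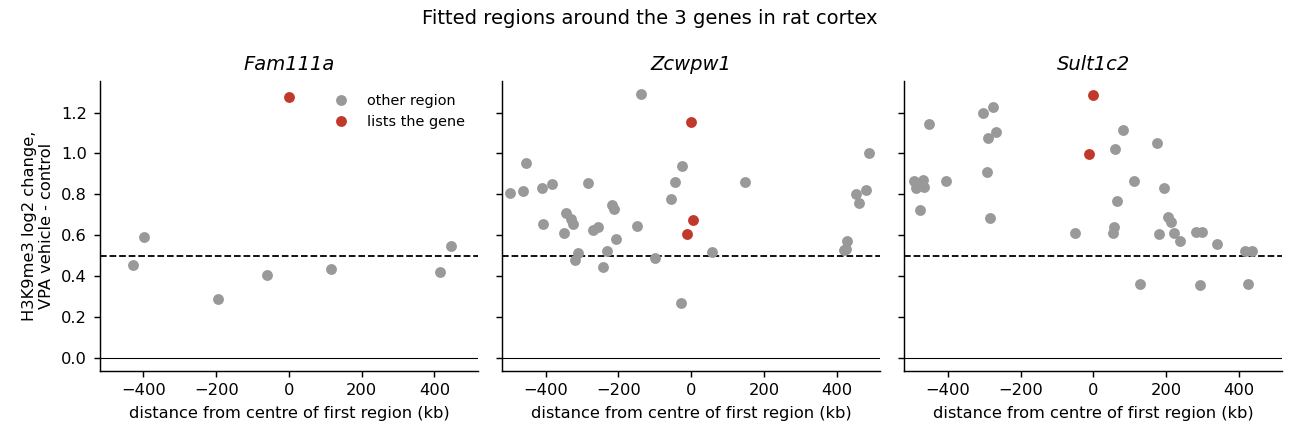
Log2 change of H3K9me3 from control to VPA vehicle against distance from the centre of each gene's first region in kb; each point is a fitted rat region within 500 kb, red where it lists the gene, and the dashed line is the median of all regions (0.50). The Fam111a region stands alone above neighbours near the median, while Zcwpw1 and Sult1c2 sit among other regions above it.

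The neighbours of Sult1c2 included other sulfotransferase genes. Sult1c2al1 appears in the table under its synonym RGD1559960, at 4 fitted regions 195.5 to 222.4 kb from the Sult1c2 centre, with log2 changes from 0.61 to 0.83. Sult1c2a, on the other side, had 4 fitted regions of 6; its region with the highest mean rose from 5.55 ± 1.50 to 11.4 ± 1.65 (SD, n = 3 each), a log2 change of 0.93 ± 0.34 (SE, adjusted p = 0.0288, limma over all regions). Sult1c3 rose from 1.79 ± 0.24 to 3.28 ± 0.45, a log2 change of 0.62 ± 0.20 (SE, adjusted p = 0.0229). In this comparison limma called 56.2% of all fitted regions, and its libraries are those that chose Sult1c2. After median centring Sult1c2a had 0.44 and Sult1c3 0.12, and neither passed.

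The list of 19 further sulfotransferases and sulfate donor enzymes had 12 genes in the rat table and 6 that could be tested for H3K9me3. Between control and VPA vehicle 4 of 6 were called higher and 0 lower: Sult1c2a, Sult1c3, Sult2a1 and Sult2a6. The latter pair, steroid sulfotransferases of the liver, had log2 changes of 0.69 ± 0.28 and 0.82 ± 0.34 (SE, adjusted p = 0.0345 and 0.0383 in limma). The lowest change of the 6 was 0.21, so all 6 were above 0. The background of the calls was 37.5% of 4986 genes called higher at their highest region. The median change of the 6 was 0.65, beside 0.40 over all genes. In VPA TAK-418 against control 2 of 6 passed, Sult1c3 with 0.62 and Sult2a1 with 0.66, where 22.6% of genes were called higher. After median centring 0 of the 6 passed in either comparison. This list holds genes of the Sult1c cluster beside Sult1c2 and is no independent sample of the genome.

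The meiotic recombination list, the pathway of Zcwpw1, had 30 of 37 genes in the table and 7 tested. Mei4, a factor of meiotic double-strand break formation, rose by 0.46 ± 0.19 (SE, adjusted p = 0.0393 in limma) from control to VPA vehicle, and no other passed, so 1 of 7 was called where 37.5% of all genes were. After median centring Mei4 had -0.041 and 0 of the 7 passed. Zcwpw2, the closest relative of Zcwpw1, had a log2 change of 0.45 ± 0.23 (SE, adjusted p = 0.0705), Hormad2, a protein of the meiotic chromosome axis, 0.54 ± 0.26 (adjusted p = 0.0584) and Psmc3ip 0.27 ± 0.14 (adjusted p = 0.084). The median of the 7 was 0.27, below the 0.40 of all genes, and 0 of 7 passed in limma from control to VPA TAK-418 (1 at an unadjusted p under 0.05), where 22.6% of all genes were called higher. Of the replication fork list, the setting of Fam111a, 28 of 29 genes were in the table and only Pold1, a subunit of the polymerase delta, could be tested; its log2 change was 0.30 ± 0.17 (SE, adjusted p = 0.0993).

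Regions with the most similar profile over the 9 rat H3K9me3 libraries were looked up among 8937 regions that list a gene, by Pearson's r of log2(signal + 1). The libraries share their group differences and their overall level, so r is high in general: its median over all fitted regions was 0.80 for Fam111a, 0.83 for Zcwpw1 and 0.87 for Sult1c2. Nearest to Fam111a were regions listing Slc35f1 (r = 0.990), Col15a1 (0.990), Abcc4 (0.986), Dram (0.971) and Olr12 (0.969). Their own log2 changes from control to VPA vehicle were 0.31 to 0.60, smaller than that of Fam111a. Nearest to Zcwpw1 were RGD1561730 (r = 0.993), Wbscr17 (0.989), Olr1381, an olfactory receptor gene (0.988), the second region of Sult1c2 (0.988) and RGD1561143 (0.985). Nearest to Sult1c2 were Gstm3, a glutathione transferase (r = 0.996), RGD1565970 (0.996), Klk1c9, a kallikrein (0.995), LOC691325 (0.992) and Trnac-gca (0.991).

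The other marks separated Fam111a from the other genes. Its region, which spans a promoter, stood at percentile 88.3 ± 1.81 of all rat regions for H3K4me3 and 88.1 ± 1.46 for H3K9Ac in controls (SD, n = 3), with H3K4me3 intervals in all 9 libraries and H3K9Ac intervals in 7 of 9. As regions are merged over marks and libraries, the H3K9me3 and the H3K4me3 of its 46999 bp need not lie at the same nucleosomes. At the first regions of Zcwpw1 and Sult1c2 the signal of H3K4me3 was between 0 and 1.75 in all 9 libraries, with no interval. H3K9Ac there was between 0 and 2.80 and H3K27me3 between 1.08 and 2.79, also with no interval. Only the Fam111a region could thus be tested, for H3K4me3 and H3K9Ac; no region of the 3 genes was fitted for H3K27me3.

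H3K9Ac at Fam111a rose after VPA, as at most regions. The control libraries had 5.09, 4.11 and 5.33, the VPA vehicle libraries 9.02, 11.1 and 6.64, and the VPA TAK-418 libraries 7.41, 7.05 and 5.69. Both VPA groups lay above the controls, but the share of all regions with this separation in H3K9Ac was not determined. The means were 4.84 ± 0.64, 8.92 ± 2.24 and 6.72 ± 0.90 (SD, n = 3 each). The log2 change from control to VPA vehicle was 0.75 ± 0.25 (SE, adjusted p = 0.00504 in limma), in a comparison where 90.8% of regions were called and the median was 0.78. From VPA vehicle to VPA TAK-418 it was -0.34 ± 0.25 (adjusted p = 0.266; 9.58% of regions called), and from control to VPA TAK-418 0.40 ± 0.25 (adjusted p = 0.251; 0% called, 0 of 17679 with 3387 at an unadjusted p under 0.05). After median centring the first of these was -0.03 (adjusted p = 0.792). Without VPA vehicle replicate 3 the second became -0.52 (adjusted p = 0.00362) and the third, still 0.40, passed (adjusted p = 0.0224).

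H3K4me3 at Fam111a had 6.14, 13.8 and 8.49 in controls, 10.6, 12.0 and 12.3 after VPA and vehicle, and 16.0, 10.8 and 17.9 after VPA and TAK-418. Control replicate 2 overlapped both VPA groups. From control to VPA TAK-418 the log2 change was 0.64 ± 0.22 (SE, adjusted p = 0.0114 in limma), where 72.8% of regions were called and the median was 0.58. From control to VPA vehicle it was 0.33 ± 0.22 (adjusted p = 0.234; 1.64% called), and from VPA vehicle to VPA TAK-418 0.31 ± 0.22 (adjusted p = 0.703; 0.224% called). The one call was lost after median centring (0.03, adjusted p = 0.945) and without control replicate 1 (0.39), control replicate 3 (0.60), VPA TAK-418 replicate 1 (0.58) or VPA TAK-418 replicate 3 (0.50), with adjusted p from 0.052 to 0.139. Without control replicate 2, VPA vehicle against control passed (0.61, adjusted p = 0.0282).

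H3K27me3 at Fam111a had 2.56, 2.42 and 2.90 in controls, 2.91, 6.29 and 2.98 after VPA and vehicle, and 5.72, 3.67 and 3.23 after VPA and TAK-418. VPA vehicle replicate 2 and VPA TAK-418 replicate 1 were the highest of their groups, and they were also the highest for H3K9me3 at this region. Divided by the H3K27me3 median of each library, the group means were 0.80 ± 0.36, 1.07 ± 0.27 and 1.02 ± 0.11 (SD, n = 3 each). The labels do not say whether libraries of 2 marks with the same number came from 1 animal.

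**Figure D4:**
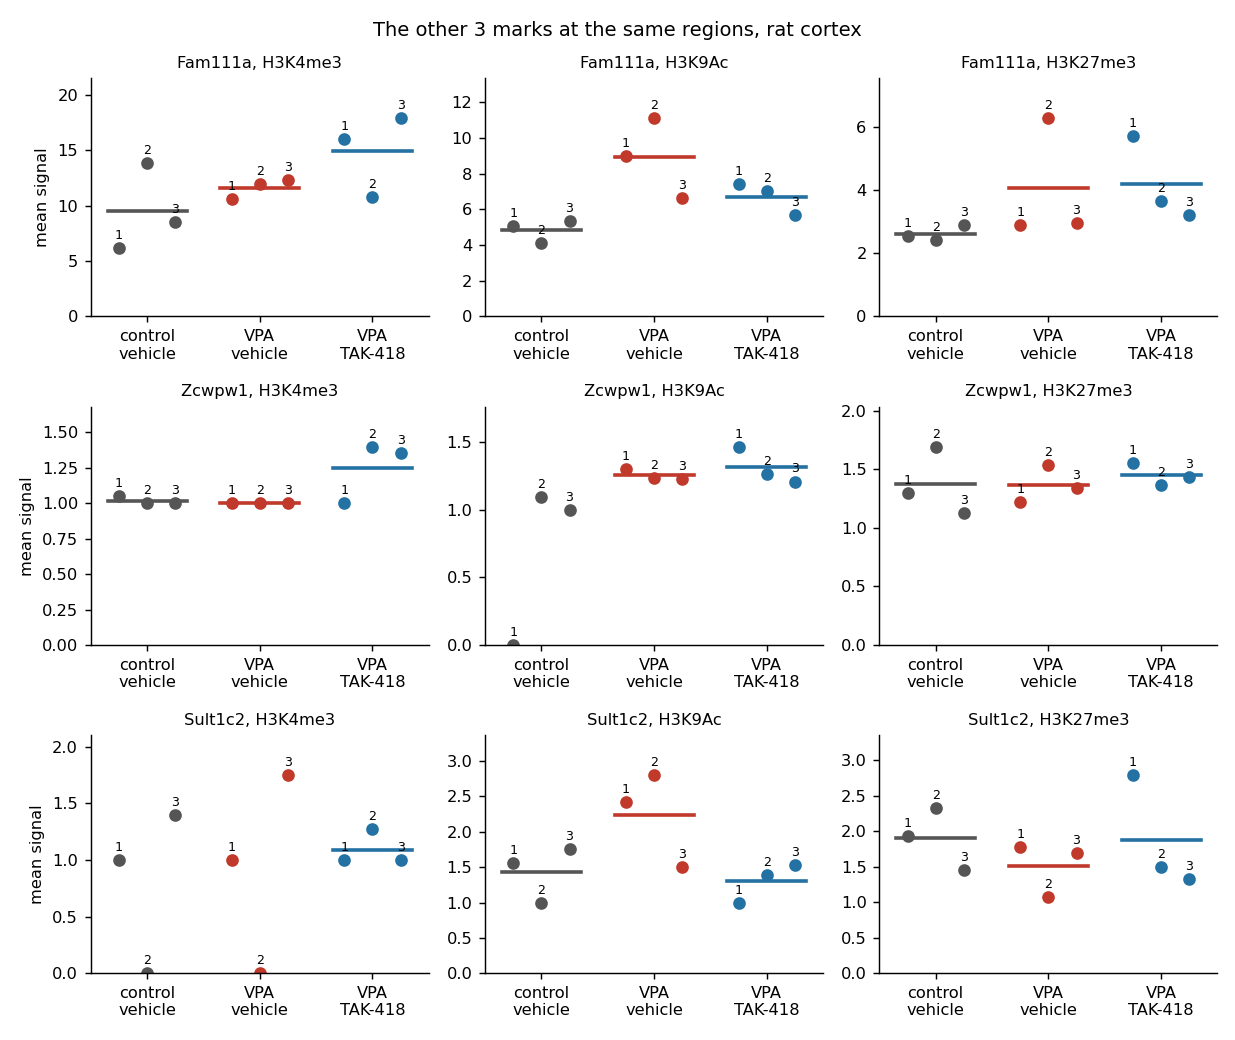
Mean signal of H3K4me3, H3K9Ac and H3K27me3 at the first region of each gene in rat cortex, by library; numbers are replicates, and bars are group means where no library is listed at 0. Scales differ between panels: Fam111a reaches 17.9 for H3K4me3, while Zcwpw1 and Sult1c2 stay at or below 2.80 for all 3 marks.

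In mouse cortex the H3K9me3 signal at the 9 regions of the 3 genes was between 1.00 and 5.75 in all libraries. Positions are on mm10. Fam111a had its first region at chromosome 19, 12594600 to 12600199, downstream of the gene and also listing A330040F15Rik and Gm4952. It overlapped 2 promoters, and its signal cannot be assigned to Fam111a alone. Zcwpw1 had its first region at chromosome 5, 137774600 to 137789799, 5603 bp upstream, with 3 CpG islands and also listing Tsc22d4, Ppp1r35 and Mepce, so its signal cannot be assigned to Zcwpw1 alone. H3K9me3 at these regions was 1.80 ± 0.29 and 2.14 ± 0.22 in controls (SD, n = 3 each), with no interval. Sult1c2 had H3K9me3 intervals in at least 3 libraries at 2 of its 4 regions, chromosome 17, 53822800 to 53834399 and 53845800 to 53848799. In controls these regions stood at percentiles 77.2 ± 7.06 and 75.0 ± 12.4 of all mouse regions (SD, n = 3 each). The larger of these had 5.75, 2.90 and 2.17 in controls, 1.66, 1.57 and 3.32 after poly I:C and vehicle, and 4.37, 1.37 and 3.12 after poly I:C and TAK-418. The groups overlapped, and the log2 change was -0.50 ± 0.46 (SE) from control to poly I:C vehicle and 0.28 ± 0.46 from there to poly I:C TAK-418 (adjusted p = 0.492 and 0.925 in limma). The other region had -0.55 ± 0.41 and 0.16 ± 0.41 (adjusted p = 0.492 and 0.925). In both comparisons 0% of regions were called (0 of 17543, with 26 and 2 at an unadjusted p under 0.05). The libraries were uneven: H3K9me3 intervals over all regions numbered 32258, 8395 and 4460 in controls. They numbered 446, 251 and 24761 after poly I:C and vehicle, and 21011, 284 and 15917 after poly I:C and TAK-418. The absence of calls thus cannot show that the mark was unchanged.

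The active marks at the mouse regions were lower after poly I:C in the deposited values. H3K9Ac at the Fam111a region was 17.9, 10.3 and 8.87 in controls, 8.14, 5.63 and 6.42 after poly I:C and vehicle, and 7.65, 6.98 and 6.80 after poly I:C and TAK-418. At the Zcwpw1 region it was 26.2, 18.6 and 13.7, then 13.0, 8.67 and 11.9, then 13.2, 13.1 and 8.98. Control replicate 1 was the highest in both, and the controls lay above both other groups. The share of all regions that separate in this way was not determined. The second Fam111a region, at the gene start, had no H3K9Ac interval and was not fitted. From control to poly I:C vehicle the log2 change was -0.74 ± 0.27 at the first Fam111a region and -0.72 ± 0.30 at Zcwpw1 (SE). The adjusted p was 0.032 and 0.0374 in limma, where 64.0% of regions were called, all lower. Both calls were lost after median centring (-0.21 and -0.19). Both were also lost without control replicate 1 (-0.46 and -0.50), control replicate 2 (-0.83 and -0.73), poly I:C vehicle replicate 2 (-0.64 and -0.57), poly I:C vehicle replicate 3 (-0.72 and -0.77) or poly I:C TAK-418 replicate 2, and that at Zcwpw1 without poly I:C TAK-418 replicate 1. From poly I:C vehicle to poly I:C TAK-418 the changes were 0.09 ± 0.27 and 0.06 ± 0.30 (adjusted p = 1.00), with 0% called (0 of 12747, with 5 at an unadjusted p under 0.05).

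H3K4me3 at the same mouse regions was 38.2, 19.7 and 19.5 in controls and 16.7, 13.9 and 14.1 after poly I:C and vehicle at Fam111a, and 46.4, 24.5 and 21.8 against 21.5, 15.1 and 18.5 at Zcwpw1. The controls lay above the poly I:C vehicle libraries in both, and control replicate 1 stood apart. For H3K4me3, too, the share of all regions with such a separation was not determined. The log2 changes were -0.69 ± 0.31 and -0.66 ± 0.33 (SE; adjusted p = 0.127 for both in limma, 0% called, 0 of 12439 with 4874 at an unadjusted p under 0.05). The second Fam111a region, at the gene start, had -0.49 ± 0.21 (adjusted p = 0.127). Without control replicate 3 Fam111a had -0.84 (adjusted p = 0.0356) and Zcwpw1 -0.86 (adjusted p = 0.0365). From poly I:C vehicle to poly I:C TAK-418 the changes were 0.11 ± 0.31 at the first Fam111a region and 0.13 ± 0.33 at Zcwpw1 (adjusted p = 1.00), with 0% called (0 of 12439, with 94 at an unadjusted p under 0.05).

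The labelled tissue was checked by H3K9Ac at marker genes in the control rats and mice. Among genes at their highest region in rats, 8 cortical neuron markers had a median percentile of 63.4 (28.2 to 95.0), 6 markers of other brain cells 36.2 (27.7 to 63.1) and 5 of other tissues 24.4 (15.8 to 44.0). In mice the medians were 64.9 (33.5 to 89.3), 42.8 (27.0 to 79.4) and 25.3 (15.2 to 73.3). The ranges overlapped in both species, so single markers do not separate the tissues. In tissue, a change in the share of cells with a mark cannot be told apart from a change in the mark per cell.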

How the data were processed

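The authors deposited 1 table of merged regions per species. Per the file headers it holds, by region and library, the mean signal, the highest signal and a 0 or 1 for a called interval. Reads were aligned with BWA 0.7.12, with builds mm10 and rn5, per the submitters' processing notes. How peaks were called, how wide bins were and how libraries were scaled is not given in the sources used here. The deposited mean signal is 0 or at least 1 and has no read counts, so depth is unknown. The genes and the lists were chosen with earlier results of these data known.

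For each species and mark, regions with an interval in at least 3 of 9 libraries were fitted with limma 3.58.1 (R 4.3.3; mean-dependent prior, robust estimation) on log2(signal + 1), with 1 model over 9 libraries. The p-values were adjusted over all fitted regions (Benjamini-Hochberg) and called under 0.05. Gene counts use the region with the highest mean. The model was tested on simulated data built from median-centred libraries with independent noise, which leaves out shifts of whole libraries. Alternatives were median centring, quantile normalization, no interval filter, a pseudocount of 0.1, 1 region per gene, a replicate block and leaving out each library. Named are the 3 genes, the genes sharing their regions, the 5 regions most similar in profile to each, and per list the 4 smallest p and all that passed. Of the library columns, 0 were left unmatched; the inputs were not used.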

Additional observations from a re-analysis of the deposited data

How the results depend on the processing

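At the first regions in rat H3K9me3, no filter, a pseudocount of 0.1, 1 region per gene and the block on replicate number moved no difference from control by more than the spread between libraries. The rescalings did. From control to VPA vehicle median centring gave 0.79 for Sult1c2 and 0.66 for Zcwpw1, and quantile normalization 0.44 and 0.44, with 0.59 for Fam111a. From control to VPA TAK-418 they gave 0.74 and 0.66 for Fam111a, 0.45 and 0.22 for Sult1c2, and 0.68 and 0.58 for Zcwpw1. Leaving out 1 library gave, from control to VPA vehicle, 0.87 to 1.61 for Fam111a, 1.06 to 1.49 for Sult1c2 and 0.99 to 1.40 for Zcwpw1.

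Fam111a in rat H3K4me3 had -0.071 with median centring and -0.029 with quantile normalization from control to VPA vehicle, and 0.025, 0.054 and, with no filter, 0.64 without a call from control to VPA TAK-418. In rat H3K9Ac the rescalings reversed VPA vehicle against control to -0.034 and -0.034, and VPA TAK-418 against VPA vehicle to 0.053 and 0.059. In mouse H3K9Ac, poly I:C vehicle against control lost its call with median centring (-0.21 for Fam111a, -0.19 for Zcwpw1), quantile normalization (-0.16, -0.14) and no filter (-0.74, -0.72). The cause was not tested.

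Leaving out 1 library gave these ranges for Fam111a: rat H3K4me3 0.086 to 0.61 (VPA vehicle against control) and 0.39 to 0.92 (VPA TAK-418 against control), rat H3K9Ac -0.52 to -0.19 (VPA TAK-418 against vehicle) and 0.31 to 0.50 (against control), mouse H3K4me3 -0.84 to -0.38 and mouse H3K9Ac -0.93 to -0.46 (poly I:C vehicle against control), and -0.018 to 0.21 (H3K9Ac, poly I:C TAK-418 against vehicle). For Zcwpw1 in mouse they were -0.86 to -0.33 and -0.94 to -0.50 from control, and -0.0018 to 0.24 (H3K4me3) and -0.094 to 0.23 (H3K9Ac) between poly I:C groups.

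Counts of regions called depended on the setting. In rat H3K9me3, VPA vehicle against control, 14664 became 0 with either rescaling, 829 without the filter, 2275 with 1 region per gene, where fewer were tested, 256 with the replicate block and 11 to 23439 without 1 library. For VPA TAK-418 against control, 10309 became 1 with either rescaling, 1225 with no filter, 903 with 1 region per gene, 144 with the block and 19 to 17548 without 1 library. VPA TAK-418 against vehicle had 0, 2 with no filter and 0 to 88 without 1 library.

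In rat H3K4me3, 234 (VPA vehicle against control), 32 (VPA TAK-418 against vehicle) and 10408 (VPA TAK-418 against control) each became 0 with either rescaling or no filter. With the replicate block they became 19, 15 and 6913, the second became 21 with 1 region per gene, and without 1 library they were 11 to 5243, 2 to 180 and 1757 to 12739. In rat H3K9Ac, VPA vehicle against control, 16047 became 4225 (centring) and 64 (quantile). For VPA TAK-418 against vehicle, 1693 became 5569 and 704 with these rescalings, 0 with no filter, 6586 with the block and 7 to 15644 without 1 library. VPA TAK-418 against control had 0, 1 with a pseudocount of 0.1, 6 with the block and 0 to 10566 without 1 library. Rat H3K27me3, VPA TAK-418 against control, had 0 and, with quantile normalization, 4.

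In mouse H3K9Ac, poly I:C vehicle against control, 8159 became 0 with either rescaling, 4 with no filter and 0 to 11882 without 1 library. In mouse H3K4me3 the 0 for this comparison became 12 with no filter, 6 with the replicate block and 0 to 7713 without 1 library, and the 0 between poly I:C groups became 35 (centring), 88 (quantile) and 0 to 213 without 1 library. In mouse H3K9me3 no filter gave 29 and 1. In mouse H3K27me3 the 0 between poly I:C groups became 0 to 9235 without 1 library. Same-numbered rat H3K9me3 libraries had correlations of -0.25 to 0.08 in their deviations from group means. Within each species and mark the lowest such correlation was between -0.60 and -0.15, so none met the bar for pairing, every correlation over 0.1; pairing across marks was not tested. The block changed no call of the 3 genes.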
